A study of Homo sapiens with 18 samples.

Results

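The genes described here are 10 members of the AP-1 and immediate early group: FOS, FOSB, FOSL1 and FOSL2 of the Fos family, JUN, JUNB and JUND of the Jun family, ATF3, EGR1 and IER2. They were chosen by name, with earlier results of these data known, and all 10 were among the 23500 rows of the expression table, 1 row each. The study knocked down MLL3 (official symbol KMT2C), a methyltransferase that places H3K4me1 at enhancers, in ZR751 cells, a line of estrogen receptor positive breast cancer. ZR751shMLL3 (MLL3 KD) cells stably carried 1 lentiviral shRNA against MLL3 and ZR751shLucif cells carried a control shRNA against luciferase. Both were flow sorted populations of the same parental line, grown with serum and insulin, and harvested at steady state without an added stimulus. RNA-seq and ChIP-seq of H3K4me1, ERα and SP1 were each done on 2 biological replicates per cell line.

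AP-1 is a dimer of basic leucine zipper proteins. A Jun protein pairs with itself, with a Fos protein or with an ATF protein, and the dimer binds short sites such as TGANTCA in promoters and enhancers. Immediate early genes are transcribed within minutes of a growth factor, serum or stress signal, through factors already present in the cell, and their transcripts are short-lived. In breast cancer cells, AP-1 proteins also meet ERα at enhancers, where the receptor can be tethered to DNA through them.

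The promoters of the members whose results are described most below are shown first, each as the 250 bases before its RefSeq start site on GRCh38.p14, 5′ to 3′ on the strand of the gene. Capitals mark GC boxes (GGGCGG on either strand, the sequence bound by SP1), CArG boxes (bound by serum response factor) and the cAMP response element (CRE). The intervals are chr14:75278578-75278827 for FOS (+ strand), chr19:45467746-45467995 for FOSB (+), chr5:138465229-138465478 for EGR1 (+), chr19:13150161-13150410 for IER2 (+), chr1:58784048-58784297 for JUN (-) and chr19:18281623-18281872 for JUND (-).
FOS: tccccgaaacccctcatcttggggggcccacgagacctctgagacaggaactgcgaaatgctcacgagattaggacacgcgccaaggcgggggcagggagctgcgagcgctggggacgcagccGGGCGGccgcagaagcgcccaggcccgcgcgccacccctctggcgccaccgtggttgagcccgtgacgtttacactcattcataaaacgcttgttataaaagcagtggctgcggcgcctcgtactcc
FOSB: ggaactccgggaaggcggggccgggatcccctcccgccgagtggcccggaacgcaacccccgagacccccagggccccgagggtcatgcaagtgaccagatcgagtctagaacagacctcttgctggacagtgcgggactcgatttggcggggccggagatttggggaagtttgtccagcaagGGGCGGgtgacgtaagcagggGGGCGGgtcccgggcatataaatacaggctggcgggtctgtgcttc
EGR1: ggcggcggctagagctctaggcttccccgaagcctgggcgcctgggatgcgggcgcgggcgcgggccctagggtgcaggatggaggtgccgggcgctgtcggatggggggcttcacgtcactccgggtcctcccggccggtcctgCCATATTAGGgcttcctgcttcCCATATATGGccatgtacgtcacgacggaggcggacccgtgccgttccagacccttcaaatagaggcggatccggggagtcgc
IER2: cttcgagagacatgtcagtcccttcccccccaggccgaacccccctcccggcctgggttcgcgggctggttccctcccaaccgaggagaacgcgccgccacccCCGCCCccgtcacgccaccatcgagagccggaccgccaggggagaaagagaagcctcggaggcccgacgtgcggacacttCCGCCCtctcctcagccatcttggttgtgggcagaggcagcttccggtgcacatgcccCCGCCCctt
JUN: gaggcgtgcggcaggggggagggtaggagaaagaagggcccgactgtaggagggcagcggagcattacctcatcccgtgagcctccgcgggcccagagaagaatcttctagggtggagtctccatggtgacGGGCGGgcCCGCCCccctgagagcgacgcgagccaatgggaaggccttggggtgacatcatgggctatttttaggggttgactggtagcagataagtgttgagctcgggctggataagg
JUND: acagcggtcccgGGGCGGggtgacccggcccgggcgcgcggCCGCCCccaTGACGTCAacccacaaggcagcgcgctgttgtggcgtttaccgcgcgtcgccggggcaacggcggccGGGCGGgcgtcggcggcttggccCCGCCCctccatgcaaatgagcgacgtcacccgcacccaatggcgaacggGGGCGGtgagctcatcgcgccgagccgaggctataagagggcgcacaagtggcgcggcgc

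EGR1 held 2 CArG boxes, and a CArG box was found in 1.16% of the 35116 promoters in the table. JUND held 5 GC boxes and 1 CRE, IER2 held 3 GC boxes, FOSB and JUN held 2 each and FOS held 1. Of the 10 promoters listed for 9 members (ATF3 has 2 and FOSL1 has none in the table), 7 held a GC box, against 42.6% of all promoters. On GRCh37 the 2 ATF3 promoters end at chr1:212738748 and chr1:212788359. Neither is at the ATF3 start used for peaks below, chr1:212782103, whose promoter was not searched. The AP-1 site TGANTCA, the EGR1 binding site and the palindromic estrogen response element were found in none of the 10, and in 6.57%, 5.37% and 0.0400% of all promoters. A match describes these letters on both strands of this window and says nothing of binding.

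Several libraries stood apart from the rest. In RNA-seq, the correlation across genes was 0.900 to 0.907 between shLucif replicate 1 and any other library, and 0.947 to 0.969 among those others. The library number of shLucif replicate 1 in the labels lies outside the run of the others. Its part in these values was not tested. The targeted gene KMT2C was at 2.34 and 6.77 FPKM (fragments per kilobase of transcript, scaled to library size) in shLucif replicates 1 and 2, and at 1.07 and 2.69 FPKM in MLL3 KD replicates 1 and 2. Its mean was lower in MLL3 KD, with a log2 fold change of -1.02 ± 0.54 (SE, n = 2 per cell line; adjusted p = 0.63 by limma), but the libraries overlapped, so KMT2C RNA does not separate the cell lines in these 4 libraries. Of the markers checked, 8 luminal epithelial genes were expressed (ESR1 at 10.8 to 14.2 FPKM), while PTPRC, COL1A2, DCN, PECAM1, KRT5, KRT14 and TP63 were all at or below 0.104 FPKM, CDH2 was at 0.200 to 0.300 FPKM, and CD68 and COL1A1 were at 7.66 to 13.9 and 13.1 to 17.8 FPKM. In ChIP-seq, the lists held 0 to 204178 peaks at an FDR of 0.01 or less, so lists were compared by rank. The SP1 list of MLL3 KD replicate 2 had a peak among its 50000 top-ranked within 1 kb of 35.3% of start sites, against 5.22% to 6.59% in the other SP1 lists.

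None of the members passed the test for a change in RNA level upon MLL3 KD. In bulk RNA, fewer cells that express a gene and less RNA per cell cannot be told apart. The values were tested as log2(FPKM + 0.5), on which scale every fold change below is given and on which the change of low genes is understated. Of the 10 members, 9 passed the filter on low values, and 0 of these 9 had a limma adjusted p below 0.05 or an unadjusted p below 0.05. Across all 11134 genes past the filter, 0.00898% were called. That is 1 gene, the small nucleolar RNA gene SNORD104, named here after its values were seen, and 7.98% of genes had an unadjusted p below 0.05. The median log2 fold change of the 9 members was 0.32, beside -0.10 for all genes tested. Of the members, 7 were above 0 and 2 below, and of all genes tested, 4557 were above 0 and 6577 below. The members' median was -0.025 without MLL3 KD replicate 1 and 0.65 without MLL3 KD replicate 2. With 2 libraries per cell line an exact permutation test of a single gene cannot give a two-sided p under 0.33.

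**Figure D1:**
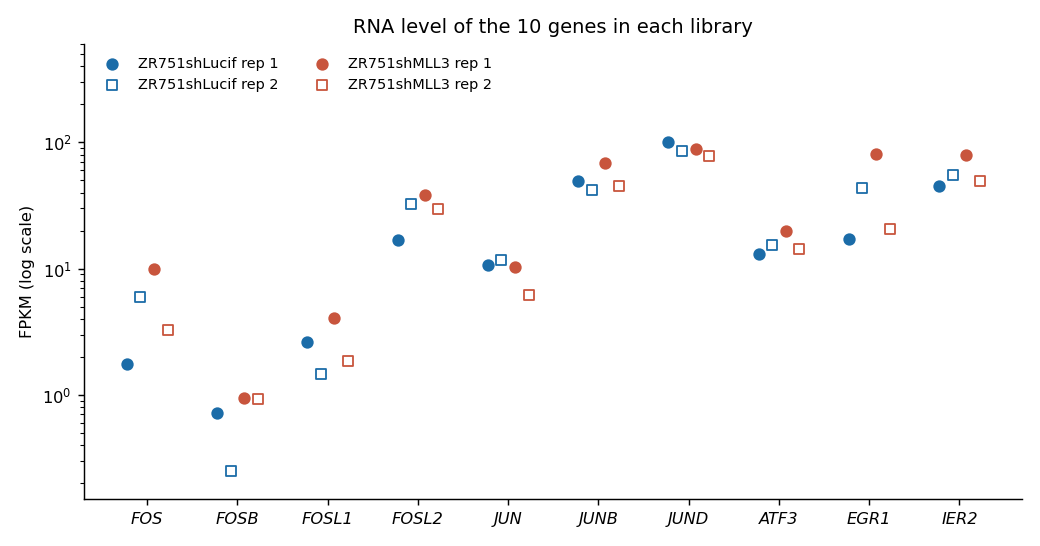
FPKM of each member (log axis) in the 2 shLucif libraries (blue) and the 2 MLL3 KD libraries (red), 1 point per library, filled circles for replicate 1 and open squares for replicate 2. MLL3 KD replicate 1 is the highest library for 8 of the 10 genes, and the cell lines overlap for all but FOSB and JUN.

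Within the Fos family, FOS, the founding partner of Jun proteins, was at 1.76 and 5.90 FPKM in shLucif replicates 1 and 2 and at 9.94 and 3.29 FPKM in MLL3 KD replicates 1 and 2. The MLL3 KD libraries fell on both sides of shLucif replicate 2, and the log2 fold change was 0.73 ± 0.65 (SE, n = 2 per cell line; adjusted p = 0.72 by limma; 95% interval -0.83 to 2.29). FOSL2 (Fra-2), a Fos protein that is typically made later and for longer than FOS, was at 16.7 and 32.3 FPKM in shLucif and at 38.2 and 29.6 FPKM in MLL3 KD. Its libraries overlapped through shLucif replicate 2, with a log2 fold change of 0.52 ± 0.38 (adjusted p = 0.68 by limma; 95% interval -0.40 to 1.45). FOSL1 (Fra-1), itself a target of AP-1, was low, at 2.64 and 1.47 FPKM in shLucif and 4.03 and 1.84 FPKM in MLL3 KD. Its log2 fold change was 0.39 ± 0.42 (adjusted p = 0.77 by limma), and the replicates of each cell line lay further apart than the cell line means.

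FOSB was the only member below the filter. It was at 0.712 and 0.251 FPKM in shLucif and at 0.943 and 0.924 FPKM in MLL3 KD, so both MLL3 KD libraries were above both shLucif libraries. No fold change or test is given for it at this level. Of all genes past the filter, 17.6% had both MLL3 KD libraries above both shLucif libraries.

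Of the Jun family, JUN was the only member past the filter whose libraries did not overlap. It was at 10.7 and 11.6 FPKM in shLucif and at 10.3 and 6.21 FPKM in MLL3 KD. MLL3 KD replicate 1 lay just under the lower shLucif library, and replicate 2 was further below. The log2 fold change was -0.45 ± 0.32 (SE, n = 2 per cell line; adjusted p = 0.68 by limma; 95% interval -1.24 to 0.33). Both MLL3 KD libraries were below both shLucif libraries in 25.3% of all genes tested, against 1 of the 9 members. JUNB, which often opposes JUN in cell growth, was at 49.2 and 42.1 FPKM in shLucif and at 68.8 and 44.7 FPKM in MLL3 KD. Its log2 fold change was 0.28 ± 0.32 (adjusted p = 0.78 by limma), and it was -0.030 once a trend with transcript GC content had been removed from each library. JUND, the Jun protein with the steadiest expression in most cells, was the most abundant member, at 99.6 and 85.4 FPKM in shLucif and at 88.0 and 78.2 FPKM in MLL3 KD. The 4 JUND values interleaved, with a log2 fold change of -0.15 ± 0.27 (adjusted p = 0.86 by limma; 95% interval -0.81 to 0.50).

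Outside these families, EGR1, a zinc finger factor and the classical serum response gene, was at 17.0 and 43.3 FPKM in shLucif and at 81.0 and 20.5 FPKM in MLL3 KD. The highest and the second lowest value were the 2 replicates of MLL3 KD, and the log2 fold change was 0.58 ± 0.71 (SE, n = 2 per cell line; adjusted p = 0.79 by limma; 95% interval -1.15 to 2.30). IER2, an immediate early gene for a nuclear protein, was at 45.3 and 55.2 FPKM in shLucif and at 78.9 and 49.4 FPKM in MLL3 KD, with a log2 fold change of 0.32 ± 0.33 (adjusted p = 0.76 by limma). ATF3, a stress-induced ATF protein that dimerizes with Jun proteins, was at 13.03 and 15.4 FPKM in shLucif and at 19.7 and 14.4 FPKM in MLL3 KD, with a log2 fold change of 0.24 ± 0.29 (adjusted p = 0.79 by limma). For both genes the MLL3 KD libraries enclosed shLucif replicate 2.

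Several members differed more between replicates than between the cell lines, and they shared an order of the libraries. FOS, FOSL2, ATF3, EGR1 and IER2 all had the order shLucif replicate 1, MLL3 KD replicate 2, shLucif replicate 2, MLL3 KD replicate 1 from lowest to highest, which 2.19% of all genes tested had. MLL3 KD replicate 1 was the highest library for 8 of the 10 members and for 17.1% of all genes tested. shLucif replicate 1 was the lowest library for 5 of the 10 members and for 20.3% of all genes. On the log2 scale the replicates of EGR1 were 1.32 apart in shLucif and 1.95 apart in MLL3 KD, more than 94.0% and 99.7% of all genes tested. The replicates of FOS were 1.504 and 1.46 apart, more than 96.0% and 99.4% of all genes. JUND replicates were 0.22 and 0.17 apart, below the medians over all genes of 0.44 in shLucif and 0.21 in MLL3 KD. These shares describe the 4 libraries and are not a test.

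**Figure D2:**
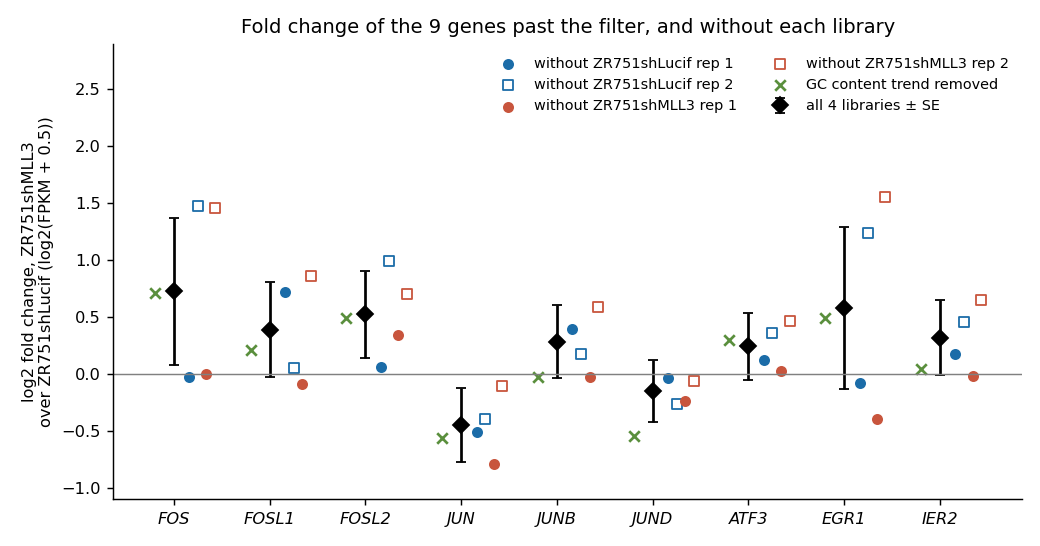
Log2 fold change of MLL3 KD over shLucif on the log2(FPKM + 0.5) scale for the 9 members past the filter: black diamonds with all 4 libraries (bars, SE), colored points with 1 library left out, green crosses with the GC content trend removed. FOS and EGR1 run from -0.026 to 1.48 and from -0.40 to 1.56 as libraries are left out, while JUN and JUND stay below 0.

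The fold changes of most members moved with single libraries, and those of FOS, FOSL1, JUNB, EGR1 and IER2 changed sign. FOS was at -0.026 without shLucif replicate 1 and at -0.0049 without MLL3 KD replicate 1, and at 1.48 and 1.46 without the other replicate of each cell line. EGR1 was at -0.08 and -0.40 without the same 2 libraries and at 1.24 and 1.56 without the others. FOSL1 was at -0.088, JUNB at -0.025 and IER2 at -0.019 without MLL3 KD replicate 1. FOSL2 did not change sign. It was at 0.06 without shLucif replicate 1 and at 0.99 without shLucif replicate 2, where its adjusted p of 0.059 by limma was the lowest of any member under any alternative (for FOSL2 these ran up to 1.0). JUN stayed negative with any library left out, from -0.80 to -0.11. Transcripts richer in GC had higher log2 fold changes over all genes tested (Spearman 0.532 over genes, which are not independent of each other). With that trend removed from each library JUN was at -0.56, JUND at -0.55 and IER2 at 0.04, and the part of GC content in the members' values was not tested otherwise.

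Genes around the AP-1 pathway were read from lists chosen for their roles. None had a gene past a limma adjusted p of 0.05. Counts of genes higher or lower in both MLL3 KD libraries are to be read against 17.6% and 25.3% of all genes tested. Among the other bZIP proteins that pair with AP-1 members or share its sites, 18 of 24 passed the filter, with 4 higher and 5 lower in both MLL3 KD libraries and a median log2 fold change of -0.05, which was 0.03 with the medians of all genes set equal. The small Maf protein gene MAFK was at 17.0 and 24.8 FPKM in shLucif and at 40.9 and 30.6 FPKM in MLL3 KD, a log2 fold change of 0.77 ± 0.32 (adjusted p = 0.61 by limma). NFE2L1, a bZIP factor of proteasome genes, and the small Maf gene MAFG were at 0.41 and 0.21. CREB1 and ATF1, which bind the CRE, were at log2 fold changes of -0.66 ± 0.28 and -0.70 ± 0.28, and ATF2, a dimer partner of JUN, was at -0.41. For each of these 3, both MLL3 KD values lay under both shLucif values, and the adjusted p-values by limma were 0.61 to 0.67.

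Of the other immediate early genes, 38 of 48 passed the filter, with 9 higher and 11 lower in both MLL3 KD libraries, close to those shares, and a median of -0.23. That median was -0.054 without shLucif replicate 1, -0.064 without MLL3 KD replicate 2 and -0.067 with no filter. EGR3, a close relative and target of EGR1, was at 7.15 and 2.27 FPKM in shLucif and at 16.7 and 24.5 FPKM in MLL3 KD, which do not overlap. Its log2 fold change was 2.17 ± 0.51 (SE, n = 2 per cell line; adjusted p = 0.46 by limma). IRF1 and the nuclear receptor NR4A1 were at 0.90 and 0.87. The growth arrest gene BTG2 was at 46.6 and 43.7 FPKM in shLucif and at 26.4 and 18.9 FPKM in MLL3 KD, a log2 fold change of -0.998 ± 0.29 (adjusted p = 0.52 by limma). ID1 and ID2, inhibitors of helix-loop-helix factors, were at -1.03 and -0.94.

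Of 16 feedback inhibitors of the MAP kinase and EGR pathways, 13 passed the filter, with 4 higher and 4 lower in both MLL3 KD libraries and a median of -0.13, which turned to 0.09 without MLL3 KD replicate 1 and to 0.07 with the filter at a mean of 3. DUSP4, a phosphatase that inactivates MAP kinases, was at 60.1 and 45.0 FPKM in shLucif and at 23.7 and 15.1 FPKM in MLL3 KD, a log2 fold change of -1.44 ± 0.34 (adjusted p = 0.45 by limma). NAB2 and NAB1, corepressors of EGR proteins, were at 0.90 ± 0.30 and 0.76 ± 0.30 (adjusted p = 0.59 and 0.61 by limma). SPRY1 was at -0.79, and DUSP8 and SPRED2 were at 0.27 and -0.22.

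Of 39 kinases and factors upstream, 34 passed the filter, with 8 higher and 5 lower and a median of 0.09, which ran from 0.03 without shLucif replicate 2 to 0.17 with the medians of all genes set equal. The MAP kinase kinases MAP2K3 and MAP2K1 were at 0.66 and 0.46 and EGFR at 0.43, while MAPK8, which phosphorylates JUN, was at -0.73 ± 0.31 (adjusted p = 0.61 by limma) and MAP2K4, its activator, at -0.54. Of 28 AP-1 target genes, a list that includes FOSL1, 14 passed the filter, with 3 higher, 1 lower and a median of 0.45. That median fell to 0.05 without shLucif replicate 2 and to 0.18 without MLL3 KD replicate 1, and was 0.05 with no filter and 0.09 with the filter at a mean of 3. TIMP1, a secreted inhibitor of matrix metalloproteinases, was at 29.1 and 22.0 FPKM in shLucif and at 80.5 and 52.9 FPKM in MLL3 KD, a log2 fold change of 1.35 ± 0.33 (adjusted p = 0.48 by limma). LIF and PLAUR were at 1.06 and 0.61. CD44, a hyaluronan receptor, was at 23.4 and 14.1 FPKM in shLucif and at 6.30 and 5.68 FPKM in MLL3 KD, a log2 fold change of -1.53 ± 0.33 (adjusted p = 0.42 by limma).

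FOSL1 had fewer H3K4me1 peaks around it in both MLL3 KD libraries than in both shLucif libraries at every rank limit and window tried, and FOS and FOSL2 at some of them. Peaks were counted by their summit within 50 kb of the gene on GRCh37, among the 50000 top-ranked of each list, so that every library contributed the same number. Around FOS there were 3 and 5 H3K4me1 peaks in shLucif and 2 and 2 in MLL3 KD. Around FOSL1 there were 4 and 5 in shLucif and 1 and 1 in MLL3 KD. Around FOSL2 there were 3 and 4 in shLucif and 0 and 2 in MLL3 KD. These 3 were the members with fewer peaks in both MLL3 KD libraries, against 10.3% of 21814 genes. FOS overlapped with the 20000 and the 100000 top-ranked peaks and within 10 kb, and FOSL2 within 10 kb and within 100 kb. The number of such members was 1 within 10 kb, against 6.83% of all genes, and 3 within 100 kb, against 12.3%. It was 2 with the 20000 top-ranked peaks, against 6.02%, and 3 with 100000, against 15.5%. At an FDR of 0.01 it was 7, against 51.6% of all genes. EGR1 was the 1 member with more, at 0 and 0 in shLucif and 1 and 1 in MLL3 KD, against 10.6% of genes, but it overlapped with the 20000 and the 100000 top-ranked peaks, at an FDR of 0.01 and within 100 kb. ATF3, whose gene and window were the longest at 55.4 and 155 kb, had 13 and 10 peaks in shLucif and 11 and 11 in MLL3 KD. All 10 members together had 26 and 30 H3K4me1 peaks in shLucif and 16 and 17 in MLL3 KD. Without ATF3 the other 9 had 13 and 20 in shLucif and 5 and 6 in MLL3 KD. The mean per gene over all genes was 3.04 and 3.06 in shLucif and 2.95 and 2.88 in MLL3 KD. Taking the same number of peaks from each list holds that mean nearly level, so it cannot show a change over all genes. At an FDR of 0.01 the members' totals were 69 and 108 in shLucif and 11 and 39 in MLL3 KD. The mean over all genes was then 8.68 and 11.9 in shLucif and 1.70 and 6.32 in MLL3 KD. Neighbouring H3K4me1 peaks of 1 list can overlap, as 11.7% to 30.2% of the 50000 did. None of the members had an H3K4me1 peak of this rank within 1 kb of its start site, against 3.78% and 3.66% of all genes in shLucif and 3.03% and 2.59% in MLL3 KD. None had a promoter H3K4me1 peak that ranked better, or worse, in both MLL3 KD libraries, against 2.15% and 6.78% of all genes.

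**Figure D3:**
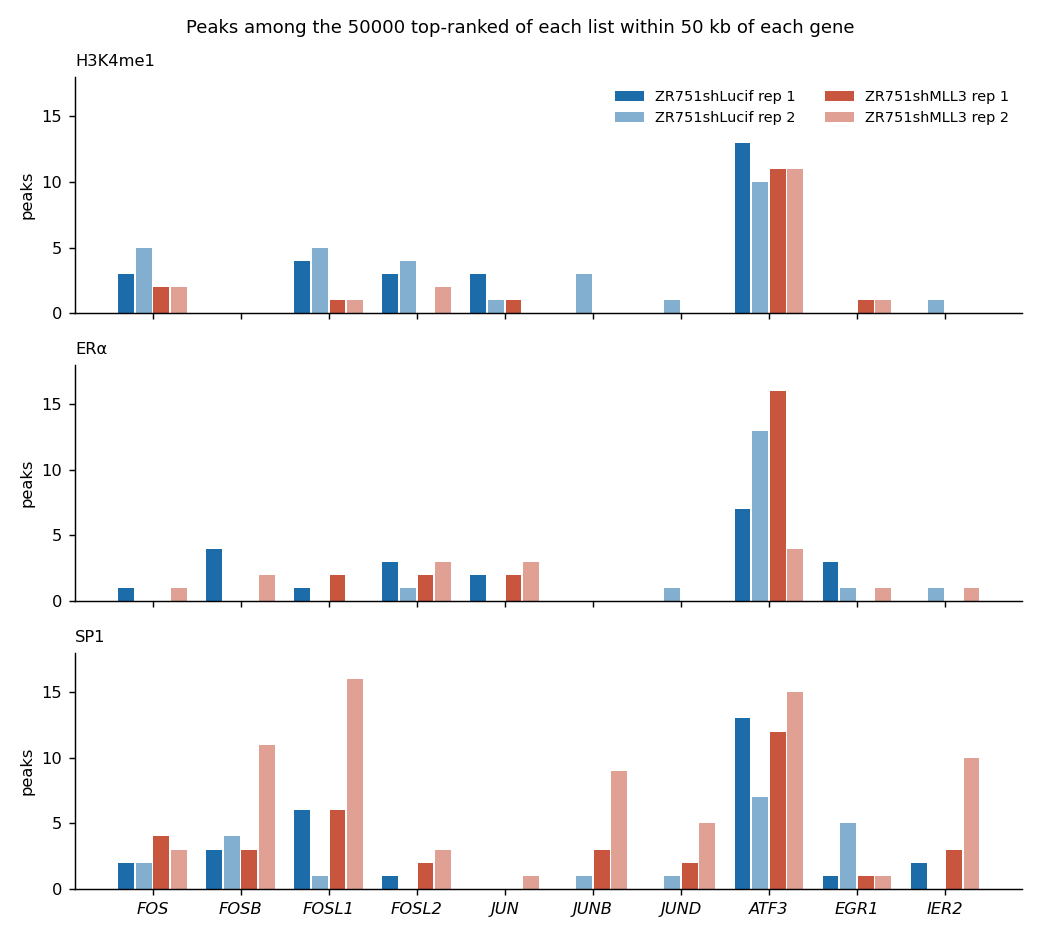
Number of peaks among the 50000 top-ranked of each list whose summit lay within 50 kb of each gene, for H3K4me1, ERα and SP1 (bars, 1 per library). FOS, FOSL1 and FOSL2 have fewer H3K4me1 peaks in both MLL3 KD libraries (red) than in both shLucif libraries (blue), and ATF3 has the most H3K4me1 and ERα peaks.

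H3K4me1 regions reproduced between replicates, at an irreproducible discovery rate (IDR) of 0.1, numbered 12 around 6 members in shLucif and 3 around 1 member in MLL3 KD. Over all genes, 46.3% had such a region within 50 kb in shLucif and 20.4% in MLL3 KD, and the whole set was 24998 regions in shLucif and 7198 in MLL3 KD. When the pairs were instead taken among the 50000 top-ranked peaks of both replicates, there were 8 regions around 3 members in shLucif and 6 around 2 members in MLL3 KD, and 35.6% and 31.6% of all genes had one. A region found in shLucif only lay 10.6 kb downstream of the FOSL1 start, at chr11:65656660-65658136, between genes and 0.852 kb from the start of CCDC85B. It ranked 16269 and 731 in shLucif and 50247 and 44160 in MLL3 KD, so the ranks of the cell lines did not overlap. SP1 peaks overlapped it at rank 9426 in shLucif replicate 1 and at ranks 129361 and 710 in MLL3 KD, with none listed in shLucif replicate 2. A second FOSL1 region, 11.9 kb upstream, ranked 21412 and 45587 in shLucif and 124733 and 218003 in MLL3 KD.

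The other members with a region in shLucif only were FOS, FOSL2, JUNB and IER2. The IER2 region, 10.1 kb downstream, ranked 54923 and 29996 in shLucif, and no overlapping peak was listed in either MLL3 KD library. The JUNB region, 3.55 kb upstream of JUNB and within an intron of HOOK2, ranked 57657 and 15541 in shLucif and 101710 and 233898 in MLL3 KD. The FOSL2 region, 43.5 kb downstream, ranked 5763 and 11234 in shLucif but also 5977 in MLL3 KD replicate 2, with replicate 1 at 221241. There the cell lines overlapped, and the region was missed in MLL3 KD through replicate 1 alone.

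The FOS region is shown because H3K4me1 and ERα peaks met there, as they also did at regions of ATF3 and FOSL2. It lay 18.4 kb upstream of FOS, at chr14:75726291-75727742 on GRCh37, within introns of 2 long noncoding RNA genes and nearer to FOS than to any other protein-coding start. H3K4me1 ranked 74366 and 14172 in shLucif and 129154 and 44382 in MLL3 KD, which overlap. ERα was listed there at ranks 1916 and 151598 in shLucif and at 37838 in MLL3 KD replicate 2, with no peak in replicate 1. The 300 bases around the H3K4me1 summit, chr14:75726940-75727239 on the + strand, held none of the motifs searched, so no letter is in capitals.
FOS upstream region: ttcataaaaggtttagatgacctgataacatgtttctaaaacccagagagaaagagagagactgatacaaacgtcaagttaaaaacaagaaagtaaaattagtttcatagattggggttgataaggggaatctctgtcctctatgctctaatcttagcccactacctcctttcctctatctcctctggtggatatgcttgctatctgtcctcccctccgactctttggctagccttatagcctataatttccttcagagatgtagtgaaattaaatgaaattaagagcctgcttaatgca

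ATF3 was the only member with reproduced H3K4me1 regions in both cell lines. Its 3 regions in MLL3 KD, 51.1, 40.9 and 12.7 kb upstream of the start site used here, overlapped 3 of its 6 regions in shLucif, and those at 40.9 and 12.7 kb lay in introns of ATF3 transcripts that begin further upstream. The shLucif region 12.6 kb upstream, in an ATF3 intron, ranked 496 and 22116 in shLucif and 5478 and 8091 in MLL3 KD, with the MLL3 KD ranks between those of the shLucif replicates. Of the 3 found in shLucif only, the one 2.48 kb upstream of the start ranked 31358 and 34675 in shLucif and 84659 and 261724 in MLL3 KD. At the others the ranks of the cell lines overlapped. The region 47.2 kb upstream ranked 31534 and 47083 in shLucif and 128871 and 14549 in MLL3 KD. The region 88.55 kb upstream ranked 71138 and 34253 in shLucif and 143992 and 37826 in MLL3 KD. At EGR1, the strongest H3K4me1 peak within 50 kb was 23.3 and 23.7 kb downstream in the shLucif libraries, at ranks 157250 and 56756. In MLL3 KD it was 2.17 and 2.27 kb upstream, at ranks 41068 and 44197. That pair did not reach the IDR threshold.

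**Figure D4:**
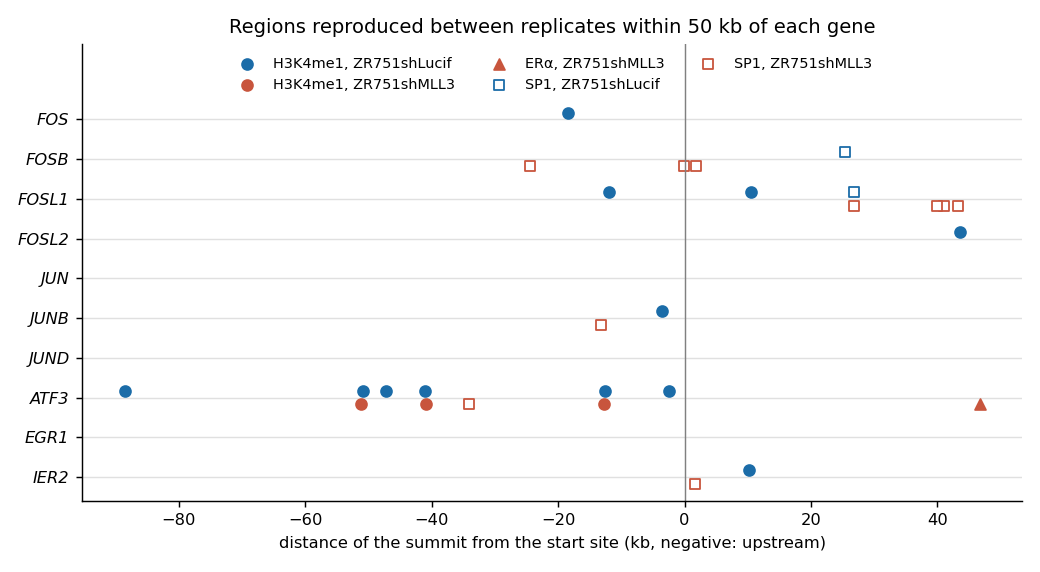
Distance in kb from each gene's start site to the summit of regions reproduced between replicates (circles H3K4me1, triangle ERα, open squares SP1; blue shLucif, red MLL3 KD). H3K4me1 regions lie around 6 genes in shLucif and around ATF3 alone in MLL3 KD, and SP1 regions lie around 2 genes in shLucif and 5 in MLL3 KD.

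ERα peaks within 50 kb of the members did not separate the cell lines. For none of the 10 members did the counts within 50 kb differ without overlap, whereas 7.01% of all genes had more in both MLL3 KD libraries and 9.30% had fewer. Within 100 kb, JUND had 2 and 2 in shLucif and 0 and 0 in MLL3 KD. It was the 1 member with fewer there, against 10.3% of all genes. The totals were 21 and 17 peaks in shLucif and 22 and 15 in MLL3 KD, and the 9 members other than ATF3 held 14 and 4 in shLucif and 6 and 11 in MLL3 KD. ATF3 had the most, with 7 and 13 in shLucif and 16 and 4 in MLL3 KD. No member had an ERα peak among the 50000 top-ranked within 1 kb of its start site, against 3.26% and 2.74% of all genes in shLucif and 1.94% and 2.09% in MLL3 KD. Below that rank, FOSB had promoter ERα peaks in shLucif at ranks 114433 and 158429 and none in MLL3 KD. Their summits lay apart, 236 and 783 bases downstream of the start. FOSB was the 1 member with a worse rank in both MLL3 KD libraries, against 1.69% of all genes, and none had a better one, against 1.60%. Within 500 bp of the start only the first of these peaks was listed, and the cell lines overlapped. At FOSL2 the strongest ERα peaks of shLucif replicate 2 and MLL3 KD replicate 1 were both 15.4 kb upstream, at ranks 3042 and 4641, and those of the other replicates were elsewhere. The only ERα region reproduced between replicates was 46.7 kb downstream of the ATF3 start in MLL3 KD, at chr1:212828452-212829071 in an intron of the noncoding gene LINC02773. It ranked 9265 and 13740 there, with no peak listed in shLucif. Over all genes, 5.70% had a reproduced ERα region within 50 kb in shLucif and 6.01% in MLL3 KD. The library codes in the labels differ in their prefix between the 2 ERα libraries of shLucif, and its part in these values was not tested.

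SP1, a factor that binds GC-rich promoters, had more top-ranked peaks around the members in MLL3 KD, above all in replicate 2. The totals were 28 and 21 in shLucif and 36 and 74 in MLL3 KD. FOS, FOSL2, JUNB, JUND and IER2, 5 of the 10 members, had more in both MLL3 KD libraries, against 14.6% of all genes, and none had fewer, against 6.29%. The count rested on the rank limit. With the 20000 top-ranked peaks it was 1 (IER2), against 11.6% of all genes. With 100000 it was 2 (JUNB and JUND), against 15.9%. At both of these limits the members were close to the share of all genes. At an FDR of 0.01 the count was 10, against 58.4% of all genes, but neither shLucif list held any peak there. FOS had 2 and 2 in shLucif and 4 and 3 in MLL3 KD. JUNB had 0 and 1 in shLucif and 3 and 9 in MLL3 KD, and IER2 had 2 and 0 in shLucif and 3 and 10 in MLL3 KD. JUND had 0 and 1 in shLucif and 2 and 5 in MLL3 KD, and FOSL2 had 1 and 0 in shLucif and 2 and 3 in MLL3 KD. Over all genes the mean was 2.54 and 2.64 in shLucif, 2.61 in MLL3 KD replicate 1 and 4.09 in MLL3 KD replicate 2. Without MLL3 KD replicate 2, the ratio of MLL3 KD to shLucif totals over the members fell to 1.47, from 2.24.

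At the start sites, FOSB was the only member with an SP1 peak listed in all 4 libraries. Its strongest SP1 peak within 1 kb ranked 13485 and 44609 in shLucif and 258 and 286 in MLL3 KD, so it was among the strongest of both MLL3 KD lists. The summits lay 49 to 106 bases before the start. The FOSB sequence above has a GC box within that span, at bases -67 to -62, and another just past it, at -46 to -41. FOSL1 was the other member ranked better in both MLL3 KD libraries, at 53669 and 5370 with no promoter peak listed in shLucif. A better rank in both MLL3 KD libraries was found for 9.03% of all genes and a worse one for 1.32%, against none of the members. In MLL3 KD replicate 2 alone, 9 of the 10 members had a promoter peak among the 50000 top-ranked, against 35.3% of all genes and 61.0% of the 10886 genes past the RNA-seq filter with a position. Of these, ATF3 ranked 748, JUN 1820, FOS 2382, EGR1 2474 and IER2 2498. In each other SP1 library FOSB was the only member with such a peak, against 5.22% and 6.04% of all genes in shLucif and 6.59% in MLL3 KD replicate 1. JUND, whose promoter held the most GC boxes, was the exception. It had no SP1 peak within 1 kb in either MLL3 KD library, and its strongest in replicate 2, at rank 2357, was 1.70 kb downstream of the start.

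**Figure D5:**
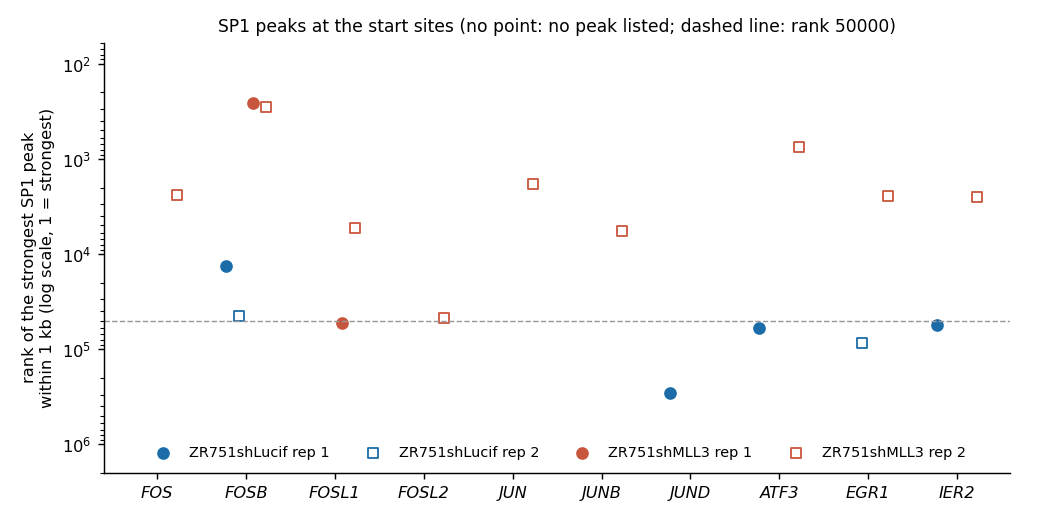
Rank of the strongest SP1 peak within 1 kb of each start site in each library (inverted log axis, 1 is the strongest, no point where no peak was listed, dashed line at rank 50000). FOSB has a peak in all 4 libraries, at 258 and 286 in MLL3 KD, and the other 8 genes above the line have one there in MLL3 KD replicate 2 only.

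SP1 regions reproduced between replicates, at an IDR of 0.5, numbered 2 around 2 members in shLucif and 10 around 5 members in MLL3 KD. Over all genes, 4.84% had such a region within 50 kb in shLucif and 18.4% in MLL3 KD. FOSB had 3 in MLL3 KD, at the promoter (chr19:45970935-45971434, where an ERCC1 intron is also annotated), 24.4 kb upstream and 1.81 kb downstream of the start, and a different one in shLucif 25.4 kb downstream. FOSL1 had 4 in MLL3 KD, of which 3 lay 40.0 to 43.2 kb downstream over CFL1 and MUS81. Those at 40.0 and 41.0 kb were 0.07 and 1.05 kb from the start of MUS81, and the one at 43.2 kb was 1.02 kb from that of CFL1. The regions at 40.0 and 41.0 kb were also listed in shLucif replicate 1, at ranks 17260 and 11418, but not in replicate 2. The fourth, 26.8 kb downstream and 0.756 kb from the start of EFEMP2, was the only SP1 region found in both cell lines. It ranked 67 and 24459 in shLucif and 20894 and 53 in MLL3 KD. IER2 had 1, 1.63 kb downstream of the start and within the gene, at ranks 3037 and 2505 in MLL3 KD, against 225223 and no listed peak in shLucif. JUNB had 1, 13.2 kb upstream in HOOK2, and ATF3 had 1, 34.2 kb upstream of its start in an ATF3 intron. FOS, FOSL2, JUN, JUND and EGR1 had no reproduced SP1 region in either cell line.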

How the data were processed

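RNA-seq of 4 libraries and ChIP-seq of 12 libraries, 2 biological replicates per cell line and antibody, were analysed, and the 2 input libraries were not analysed here. Per the submitters' processing notes, RNA reads were aligned with TopHat2 2.0.13 and the authors deposited FPKM values from Cuffnorm 2.2.1 on hg19. The paper gives an approximate depth per sample, but FPKM values do not give the number of reads behind each gene. ChIP reads were aligned with BWA 0.7.5a-r405 and the authors called relaxed peak lists per replicate with SPP against input. The deposited lists hold a peak signal, on a scale of its own in each list, and a −log10 FDR.

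Gene identifiers were matched through RefSeq, which named 22890 of 23500 rows, and positions came from GENCODE on GRCh37. Genes with a mean log2(FPKM + 0.5) above 1 were tested with limma 3.58.1 (R 4.3.3) and Benjamini-Hochberg adjustment over all 11134, at a threshold of 0.05. Peaks were ranked by signal, ties by FDR and then by list order. Peaks of 2 replicates overlapping by 1 bp or more were paired 1 to 1, a Gaussian copula mixture gave an IDR, and overlapping pairs were merged. An IDR of at most 0.1 was required of H3K4me1 pairs, 0.7 of ERα pairs and 0.5 of SP1 pairs. The last 2 are lenient, and the ERα list of shLucif replicate 1 had 5095 peaks tied at rank 50000. Both procedures were tested on simulated data. The reproducible component of the mixture was kept at a mean of 1 or more and a correlation of 0.2 or more, since without bounds unrelated simulated lists were fitted as reproducible.

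The members and gene lists were chosen with earlier results of these data known. From each list, genes past the filter whose libraries did not overlap were ranked by log2 fold change, and the 3 largest rises and 3 largest falls were named. Among peaks, reproduced regions and the strongest peak of each list were named. Promoter sequences are RefSeq on GRCh38.p14, and peaks are on GRCh37 (hg19). Alternatives were the pseudocount, the filter, the scaling, a replicate block, a surrogate variable, GC content, each library left out, the rank or FDR limit and the window.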

Additional observations from a re-analysis of the deposited data

How the results depend on the processing

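No member passed a limma adjusted p of 0.05 in any alternative. JUNB turned to -0.030 with the GC content trend removed, with or without a replicate block. Leaving out 1 library gave -0.026 to 1.48 for FOS (-0.0049 without MLL3 KD replicate 1), -0.088 to 0.86 for FOSL1, -0.025 to 0.59 for JUNB, -0.40 to 1.56 for EGR1 (-0.080 without shLucif replicate 1) and -0.019 to 0.65 for IER2, all of which changed sign, and 0.06 to 0.99 for FOSL2, 0.02 to 0.46 for ATF3, -0.80 to -0.11 for JUN and -0.26 to -0.04 for JUND, which did not. The median over the members ran from -0.025 to 0.65. The count of called genes was 1 in the main analysis, 0 with no filter, 33 with a replicate block, 473 with 1 surrogate variable and 2 to 1269 with a library left out, the highest without shLucif replicate 2. Replicate numbers are not stated to mark a shared batch, and the deviations of same-numbered libraries correlated at 0.04 across genes. The median log2 fold change over all genes was -0.10, -0.02 with medians set equal and -0.01 with the GC content trend removed.

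The ratio of MLL3 KD to shLucif totals for H3K4me1 was 0.589, and 0.458 with the 20000 top-ranked peaks, 0.712 with 100000, 0.283 at an FDR of 0.01, 0.774 within 10 kb and 0.677 within 100 kb. Leaving out a library gave 0.55 to 0.635 for H3K4me1, 0.789 to 1.16 for ERα and 1.47 to 3.02 for SP1. The ERα ratio was 0.974, 1.57 with 20000 peaks and 0.190 at an FDR of 0.01. At that FDR the members' ERα totals were 41 and 1 in shLucif replicates 1 and 2 and 0 and 8 in MLL3 KD. The mean over all genes was then 5.27 and 0.21 in shLucif and 0.05 and 1.59 in MLL3 KD, so that ratio rests on shLucif replicate 1. Within 2 kb of the start, 1 member had a H3K4me1 peak in shLucif replicate 1 and 1 in MLL3 KD replicate 1, 1 had an ERα peak in shLucif replicate 1 and 1 in MLL3 KD replicate 2, and 2 had an SP1 peak in MLL3 KD replicate 1.

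Of reproduced H3K4me1 regions in shLucif, there were 6 at an IDR of 0.05, 25 at an FDR of 0.01 in both replicates, 8 among the 50000 top-ranked of both replicates and 22 within 100 kb. In MLL3 KD there were 1 at an IDR of 0.05, 6 at an FDR of 0.01, 6 among the 50000 top-ranked of both replicates and 5 within 100 kb. ERα gave 1 region in shLucif among the top-ranked and 1 within 100 kb, and 0 in MLL3 KD at an IDR of 0.05, at an FDR of 0.01 and within 10 kb. SP1 gave 0 in shLucif at an IDR of 0.05, at an FDR of 0.01 and within 10 kb, 4 among the top-ranked and 4 within 100 kb, and in MLL3 KD 4 at an IDR of 0.05 and 4 within 10 kb. The causes were not tested. FPKM values carry no read depth, and the peak lists may differ in depth and background. A rank therefore says where a peak stands in its own list and not how much protein was bound.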
